A study of Mus musculus with 16 samples.

Results

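The endothelium, the cell layer that lines blood vessels, was followed by 10 of its marker genes through RNA sequencing of sorted lung cells: Pecam1, Cdh5, Kdr, Tie1, Tek, Cldn5, Egfl7, Ramp2, Eng and Vwf. These are 10 of the 49452 genes in the tables, and they were chosen on measured values, because earlier results from these libraries had shown them high in a few Pdgfra-tdT mice. Their levels and differences are therefore a description, and no test was made on them. All 16 mice were 11 weeks old and were killed 14 days after instillation, and tdTomato-positive cells of the left lung lobe were sorted, 4 mice in each of 4 groups. The first pair of groups was of the strain Acta2-CreERT2; tdTomatoflox, given saline or bleomycin and fed 400 mg/kg tamoxifen from 5 days after instillation. The other pair was of the strain Pdgfra-CreERT2; tdTomatoflox, given saline or bleomycin and injected with 5 doses of 3 mg tamoxifen at 6 weeks of age. Bleomycin injures the lung and is followed by fibrosis. In both strains tamoxifen lets Cre remove a stop signal, and the red protein then marks the cells in which the Acta2 or the Pdgfra promoter was active, together with their descendants. The label thus marks smooth muscle cells and myofibroblasts in the first strain (Acta2-tdT) and lipofibroblasts and other mesenchymal cells in the second (Pdgfra-tdT), and endothelial cells are not its intended target in either.

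Endothelial cells hold one another through VE-cadherin, PECAM-1 and claudin-5, which close the vessel wall. They sense vascular endothelial growth factor through the receptor encoded by Kdr, and the angiopoietins through the receptor TIE2, encoded by Tek, which its relative TIE1 modulates. In the lung, capillaries wrap each alveolus, and endothelial cells are among the most abundant cells of the organ.

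The promoters of the members were compared first, because their levels moved together across the mice. RefSeq promoter entries were matched for 6 members, in 8 windows of the 250 bases before a transcription start (build GRCm38.p6). The windows were searched on both strands for CAGGAA and CCGGAA, hexamers that hold the GGAA core bound by ETS factors, a family to which the endothelial regulator ERG belongs. Either hexamer stood in 5 of the 8 windows and in 4 of the 6 members (Egfl7, Tek, Tie1 and Kdr), against 35.1% of all 32851 promoter windows. CAGGAA was in 8446 of all windows (25.7%) and CCGGAA in 3952. The windows shown are those of Tek and Egfl7, which held 2 matches each, and those of Cldn5, the member with the highest level in most mice, and Eng, the member least like the others across mice, which held none. Capitals mark the matches, and TTCCTG is CAGGAA read on the other strand.
Tek, chr4:94739039-94739288, plus strand: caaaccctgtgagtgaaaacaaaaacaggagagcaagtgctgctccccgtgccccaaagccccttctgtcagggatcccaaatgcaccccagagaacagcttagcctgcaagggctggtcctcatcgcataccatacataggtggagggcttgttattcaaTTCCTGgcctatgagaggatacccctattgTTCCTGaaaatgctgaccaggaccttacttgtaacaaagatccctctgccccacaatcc
Egfl7, chr2:26580833-26581082, plus strand: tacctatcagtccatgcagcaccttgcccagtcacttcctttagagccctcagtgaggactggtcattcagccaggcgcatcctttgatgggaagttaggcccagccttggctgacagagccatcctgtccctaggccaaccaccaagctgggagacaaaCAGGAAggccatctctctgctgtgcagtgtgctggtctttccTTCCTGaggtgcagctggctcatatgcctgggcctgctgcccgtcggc
Cldn5, chr16:18776597-18776846, plus strand: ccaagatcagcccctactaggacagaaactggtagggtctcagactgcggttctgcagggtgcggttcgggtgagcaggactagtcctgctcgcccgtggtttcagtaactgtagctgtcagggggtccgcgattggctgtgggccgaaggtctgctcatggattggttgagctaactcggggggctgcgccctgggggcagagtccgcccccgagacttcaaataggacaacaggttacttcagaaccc
Eng, chr2:32646345-32646594, plus strand: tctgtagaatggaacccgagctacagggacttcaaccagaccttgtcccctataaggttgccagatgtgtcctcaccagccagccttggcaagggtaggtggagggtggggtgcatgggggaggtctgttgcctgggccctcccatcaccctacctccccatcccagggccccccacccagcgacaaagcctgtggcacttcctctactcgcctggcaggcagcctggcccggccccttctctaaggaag
In the Tek window the matches began 89 and 59 bases before the start, and in the Egfl7 window 90 and 48 bases before it. Neither TATAAA, found in 12.4% of all windows, nor AGATAA, found in 9.99%, stood in any of the 8. The GC content of the 8 windows ran from 51.2% to 63.2%, and its median over all windows was 52.4%. A match of this kind describes the letters only.

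Among the Pdgfra-tdT libraries, saline mouse 3 and bleomycin mouse 5 stood apart from the rest of their groups, so results that rest on them are given with and without them. The deposited values are FPKM, the fragments assigned to a gene after correction for its length and for the size of the library. The FPKM of nuclear protein-coding genes summed to between 35602 and 57788 in Acta2-tdT saline mice and to between 231058 and 463127 in Acta2-tdT bleomycin mice. In Pdgfra-tdT mice this sum ran from 29964 to 59840 with saline and from 28512 to 137952 with bleomycin. Levels were therefore given on a second scale too, as FPKM divided by that sum and multiplied by 1000000, called the scaled level. Read depth is unknown, since the tables hold no counts.

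The label was checked against its own genes and against those of other cells. The scaled level of Acta2, the actin of smooth muscle, ran from 3783 to 6934 in Acta2-tdT mice and from 16.7 to 304 in Pdgfra-tdT mice. That of Pdgfra, a growth factor receptor of fibroblasts, ran from 59.2 to 101 in Pdgfra-tdT saline mice and from 17.8 to 47.5 in Pdgfra-tdT bleomycin mice, against 6.55 to 25.7 in Acta2-tdT mice. The list as a whole was higher in Acta2-tdT mice after bleomycin and overlapped with saline. The 10 fibroblast markers, Pdgfra included, summed with saline to between 563 and 766 in Acta2-tdT mice against 270 to 1052 in Pdgfra-tdT mice, and with bleomycin to between 4554 and 6882 against 101 to 1286. The 10 leukocyte and macrophage markers summed to scaled levels of 10660 to 29370 in Acta2-tdT mice, 800 to 3804 in Pdgfra-tdT saline mice and 13070 to 36530 in Pdgfra-tdT bleomycin mice. Within Pdgfra-tdT saline mice this sum was lowest in mouse 3, where the endothelial genes were highest, and in Pdgfra-tdT bleomycin mice it was 24070 in mouse 5, which was neither the highest nor the lowest of its group. The part of leukocyte RNA in the results was not tested.

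The 10 members together summed to scaled levels of 382 to 465 in Acta2-tdT saline mice and 216 to 286 in Acta2-tdT bleomycin mice. In Pdgfra-tdT saline mice the sum was 575, 224, 12770 and 307 in mice 1 to 4, and in Pdgfra-tdT bleomycin mice it was 11560, 3565, 1388 and 247 in mice 5 to 8. Each Pdgfra-tdT group thus held mice near the Acta2-tdT range and mice far above it. The Pdgfra-tdT bleomycin mice formed a graded series. As a ratio, mouse 8 lay further below mouse 7 than mouse 6 lay below mouse 5. In libraries made from many cells, fewer endothelial cells and less RNA per endothelial cell cannot be told apart. Every member had a value above 0 in all 16 mice, and the lower bound that Cufflinks gives lay above 0 in 159 of 160 values, the exception being Cdh5 in Acta2-tdT bleomycin mouse 7.

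**Figure D1:**
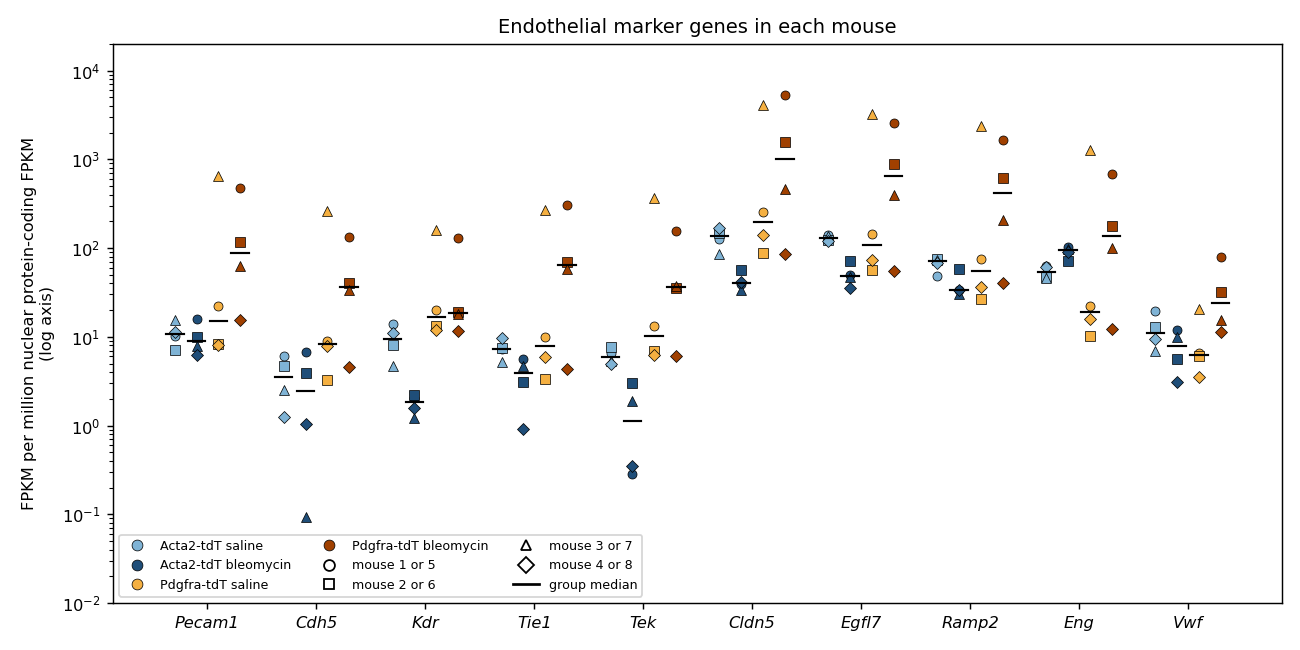
Scaled level (FPKM relative to the nuclear protein-coding sum, log axis) of each of the 10 endothelial marker genes in each of the 16 mice, with colors for the 4 groups, symbols for the mouse and a bar at each group's median. Pdgfra-tdT saline mouse 3 and Pdgfra-tdT bleomycin mouse 5 are the highest 2 of the 16 mice for 9 of the 10 genes, while the 4 mice of each Acta2-tdT group lie close together for most of them.

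Among the junction genes, Pecam1 (chr11:106654217-106750628, minus strand) encodes the adhesion protein CD31 of endothelial cells, platelets and some leukocytes. Its scaled level was 10.2, 7.06, 15.4 and 11.3 in Acta2-tdT saline mice 1 to 4 and 16.1, 10.04, 7.90 and 6.29 in Acta2-tdT bleomycin mice 5 to 8. It was 22.1, 8.38, 654 and 8.04 in Pdgfra-tdT saline mice and 477, 116, 62.1 and 15.5 in Pdgfra-tdT bleomycin mice. The groups overlapped, and the high values were those of saline mouse 3 and bleomycin mice 5 to 7. As deposited, Pecam1 was at 39.1 FPKM in saline mouse 3 and 65.9 in bleomycin mouse 5, against 0.252 to 0.663 in the other Pdgfra-tdT saline mice. Its level ranked 188 among nuclear protein-coding genes in saline mouse 3 and 340 in bleomycin mouse 5.

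Cdh5 (chr8:104101625-104144511, plus strand) encodes VE-cadherin, the adherens junction protein of endothelium. VE-cadherin RNA was at scaled levels of 6.09, 4.63, 2.49 and 1.25 in Acta2-tdT saline mice and 6.67, 3.91, 0.0936 and 1.05 in Acta2-tdT bleomycin mice. The Pdgfra-tdT mice had 8.86, 3.25, 261 and 7.87 with saline and 133, 40.2, 33.4 and 4.55 with bleomycin. Bleomycin mouse 8 lay among the saline mice, while mice 5 to 7 lay above all of them but mouse 3. An antisense gene, Gm29682, overlaps Cdh5, and since the library kit keeps no strand, reads of the pair cannot be told apart.

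Cldn5 (chr16:18776847-18778262, plus strand) encodes claudin-5, a tight junction protein of endothelium, and had the highest scaled level of the 10 members in 10 of the 16 mice. It was 126, 150, 85.4 and 169 in Acta2-tdT saline mice and 39.9, 56.9, 33.4 and 41.2 in Acta2-tdT bleomycin mice, so the bleomycin mice all lay below the saline mice. Values in Pdgfra-tdT mice were 253, 88.3, 4105 and 139 with saline and 5374, 1564, 460 and 85.1 with bleomycin. Cldn5 ranked 15 among nuclear protein-coding genes in saline mouse 3, 17 in bleomycin mouse 5 and 57 in bleomycin mouse 6. Its lowest Pdgfra-tdT value, in bleomycin mouse 8, was close to that of saline mouse 2.

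Kdr (chr5:75932827-75978458, minus strand) encodes VEGFR2, the main signaling receptor for vascular endothelial growth factor. Scaled levels of Kdr were 14.0, 7.98, 4.74 and 11.1 in Acta2-tdT saline mice and 2.06, 2.23, 1.201 and 1.58 in Acta2-tdT bleomycin mice, which did not overlap. Those of Pdgfra-tdT mice were 19.8, 13.3, 161 and 11.8 with saline and 129, 19.02, 18.2 and 11.7 with bleomycin. Apart from saline mouse 3 and bleomycin mouse 5, Kdr ran from 11.7 to 19.8 in the Pdgfra-tdT mice, the narrowest of these ranges among the 3 receptor genes.

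Tek (chr4:94739289-94874976, plus strand), whose promoter is shown above, encodes the angiopoietin receptor TIE2. Its scaled level was 6.63, 7.60, 5.33 and 4.98 in Acta2-tdT saline mice and 0.287, 2.996, 1.90 and 0.352 in Acta2-tdT bleomycin mice, again without overlap. In Pdgfra-tdT mice it was 13.3, 6.98, 371 and 6.29 with saline and 155, 35.2, 37.6 and 6.01 with bleomycin. Tie1 (chr4:118471191-118490061, minus strand) encodes TIE1, an orphan receptor that pairs with TIE2. Scaled levels of Tie1 were 7.30, 7.43, 5.22 and 9.71 in Acta2-tdT saline mice and 5.56, 3.08, 4.71 and 0.921 in Acta2-tdT bleomycin mice, where 1 bleomycin mouse lay above the lowest saline mouse. Tie1 in Pdgfra-tdT mice was at 9.94, 3.36, 271 and 5.95 with saline and 308, 69.4, 57.9 and 4.36 with bleomycin. Both receptors were thus highest in saline mouse 3 and bleomycin mouse 5, in opposite order, with Tek higher in the former and Tie1 in the latter. The ratio of Tie1 to Tek, both per length, was 0.731 in saline mouse 3 and 1.995 in bleomycin mouse 5.

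Egfl7 (chr2:26580014-26593120, plus strand) encodes a secreted protein of endothelium that guides vessel tube formation, and its introns carry the miR-126 genes. Its scaled level was 139, 123, 137 and 119 in Acta2-tdT saline mice and 50.1, 72.2, 46.8 and 35.9 in Acta2-tdT bleomycin mice, without overlap. In Pdgfra-tdT mice it was 144, 57.3, 3247 and 73.1 with saline and 2573, 896, 394 and 55.6 with bleomycin. Egfl7 ranked 20 among nuclear protein-coding genes in saline mouse 3 and 31 in bleomycin mouse 5. It overlaps Gm20532, Mir126a, Mir126b and Agpat2, whose reads the kit does not separate by strand.

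Ramp2 (chr11:101246028-101259546, plus strand) encodes the partner that turns the calcitonin receptor-like receptor into an adrenomedullin receptor. The scaled level was 48.3, 76.1, 72.6 and 68.8 in Acta2-tdT saline mice and 33.3, 58.3, 30.6 and 33.9 in Acta2-tdT bleomycin mice. Pdgfra-tdT mice had 74.9, 26.5, 2398 and 36.0 with saline and 1647, 616, 209 and 40.4 with bleomycin. The Acta2-tdT groups overlapped through 1 bleomycin mouse, mouse 6. Vps25 overlaps Ramp2 on the same strand in the annotation, where Ramp2 extends past the end given with the deposited values (101248250).

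Eng (chr2:32646595-32682669, plus strand) encodes endoglin, a co-receptor for BMP9 and TGF-beta that mesenchymal cells and macrophages also carry. Its scaled level was 63.5, 46.7, 46.4 and 60.8 in Acta2-tdT saline mice and 102, 70.9, 98.1 and 91.5 in Acta2-tdT bleomycin mice, so every bleomycin mouse lay above every saline mouse. In Pdgfra-tdT mice it was 22.5, 10.3, 1276 and 15.9 with saline and 690, 177, 101 and 12.3 with bleomycin. Eng was the member with the highest level in 3 mice, all of them Acta2-tdT bleomycin mice. The ratio of Eng to Pecam1 ran from 6.32 to 14.5 in Acta2-tdT bleomycin mice and from 3.01 to 6.62 in Acta2-tdT saline mice, against 0.795 to 1.97 in Pdgfra-tdT mice. Mir1954, Gm47291, Gm26236 and Fpgs overlap Eng.

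Vwf (chr6:125546774-125686679, plus strand) encodes von Willebrand factor, which endothelial cells and megakaryocytes store and release in clotting. Its scaled level was 19.7, 12.8, 6.90 and 9.47 in Acta2-tdT saline mice and 12.1, 5.58, 10.1 and 3.07 in Acta2-tdT bleomycin mice. The values of Pdgfra-tdT mice were 6.56, 6.00, 20.4 and 3.497 with saline and 78.8, 32.1, 15.6 and 11.3 with bleomycin. In saline mouse 3 Vwf was only 3.11 times the next mouse of its group, where the other members were far further apart. The ratio of Vwf to Pecam1 was 0.0312 in that mouse, 0.297 to 0.716 in the other Pdgfra-tdT saline mice and 0.165 to 0.276 in Pdgfra-tdT bleomycin mice 5 to 7. In Acta2-tdT mice it ran from 0.447 to 1.94.

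Saline mouse 3 had the highest scaled level of all 16 mice for 7 members and bleomycin mouse 5 for the other 3. Over the next mouse of its own group, saline mouse 3 was 3.11 to 56.7 times higher (median 27.6), and bleomycin mouse 5 was 2.45 to 6.76 times higher (median 3.67). The 4 Pdgfra-tdT bleomycin mice stood in the same order for 9 members, with mouse 5 the highest, then 6, 7 and 8. The 10 genes come from the same libraries, so this shared order is not 10 separate observations. The nuclear protein-coding sum stood in the same order (137952, 49700, 42515 and 28512 in mice 5 to 8). So did the number of genes at 1 FPKM or more (10946, 8648, 8328 and 6997). Saline mouse 3 likewise had the largest sum of its group (59840 against 29964 to 36086) and the most such genes (10195 against 7007 to 7424). The part of these library differences in the order was not tested. All 10 members reached 1 FPKM in saline mouse 3 and in bleomycin mouse 5, 9 in bleomycin mouse 6 and 8 in bleomycin mouse 7, against 2 or 3 in the other 4 Pdgfra-tdT mice. In Acta2-tdT mice, 4 reached 1 FPKM in each saline mouse and 6 to 8 in each bleomycin mouse.

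The companion genes, 115 further genes in 10 lists of endothelial genes and of ligands, signaling partners and cofactors of the members, of which 114 were matched, showed how far this order reached beyond the members. Of the 102 that were at 1 FPKM or more in any mouse, saline mouse 3 was the highest Pdgfra-tdT saline mouse for 83 and over 3 times the next mouse for 66. All 19 genes of the list of other endothelial surface genes were highest in saline mouse 3 among the saline mice and in bleomycin mouse 5 among the bleomycin mice, which Cd93, Gpihbp1 and Emcn are examples of. Of the junction partners, 11 of 11 were highest in saline mouse 3, and of the transcription factors 11 of 13. The shares were lower for the von Willebrand factor storage and anticoagulant partners (4 of 8), the adrenomedullin and RAMP partners (3 of 5) and the VEGF and angiopoietin partners (8 of 12). Of 3 lymphatic endothelial genes at 1 FPKM or more, saline mouse 3 was the highest for 1. The same was true of 0 of 9 leukocyte markers, 0 of 8 lung epithelial markers, 0 of 4 erythroid markers, 1 of 9 smooth muscle markers and 2 of 9 fibroblast markers. Among the bleomycin mice, mouse 5 was the highest for 72 of the 102 companions, and also for 6 of 9 fibroblast and 4 of 9 smooth muscle markers, 1 of 9 leukocyte markers and none of the lung epithelial and erythroid markers. Summed, the 10 fibroblast markers were highest in both of these mice, at 1052 in saline mouse 3 against 270 to 456 in the other saline mice, and at 1286 in bleomycin mouse 5 against 101 to 396, so the 2 mice stood apart for this list too. Its part in the result was not tested. Platelet and megakaryocyte markers, which share Pecam1 and Vwf with endothelium, were highest in saline mouse 3 for 2 of 6. These counts are within single mice and carry no test, and the share over all genes was not computed for them. Saline mouse 3 and bleomycin mouse 5 also had the most genes at 1 FPKM or more in their groups (10195 and 10946).

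**Figure D2:**
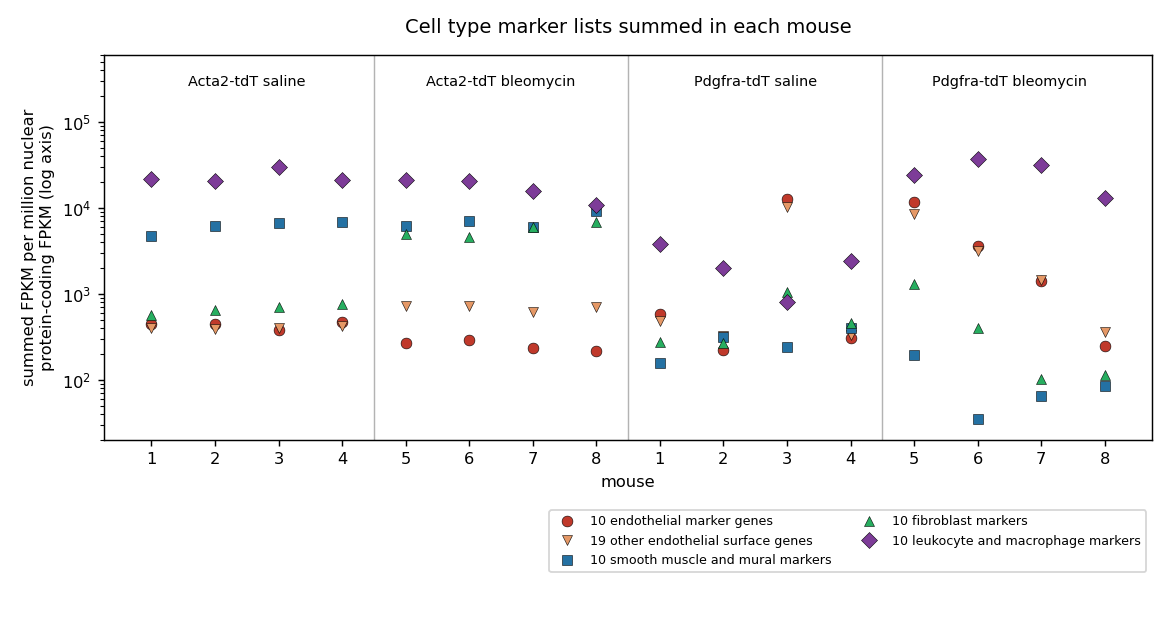
Summed scaled level (log axis) of the 10 endothelial marker genes, 19 other endothelial surface genes and 3 lists of 10 markers of other cells, in each of the 16 mice. The members and the other endothelial surface genes rise and fall together from mouse to mouse in the Pdgfra-tdT groups, with members at 12770 in saline mouse 3 and 11560 in bleomycin mouse 5, whereas in Acta2-tdT bleomycin mice the surface genes lie above the members.

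The likeness of the members to one another was measured over the 16 mice as Pearson's r of log2(scaled level + 1) between each member and the mean of the other 9. It was 0.73 for Eng, 0.78 for Vwf, 0.87 for Kdr and 0.94 to 0.99 for the other members. Without the 2 mice that stood apart it was 0.24 for Eng, 0.63 for Kdr, 0.69 for Vwf and 0.82 to 0.97 for the others. Eng thus followed the other members least. All points share the libraries and their scaling, so r is given as a description. Among 10355 genes that are not members, those most like the mean of the members were Kit, a receptor of mast cells and capillary endothelium (r = 0.98), Rasip1, a regulator of endothelial junctions (0.98), Tspan7 (0.97), Tmem100, a lung endothelial gene downstream of ALK1 (0.97), and Cyyr1 (0.96). Without the 2 mice r was 0.94 for Kit, 0.95 for Rasip1, 0.92 for Tspan7, 0.89 for Tmem100 and 0.91 for Cyyr1. Kit was at a scaled level of 229 in saline mouse 3 and 218 in bleomycin mouse 5, against 2.47 to 7.74 in the other saline mice of the line. Of the 100 genes most like the members, 26 were companion genes, which is 32.9% of the 79 companion genes compared.

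The lines were compared after saline first, which asks whether the 2 labeled populations carried endothelial RNA to different extents in the uninjured lung. The scaled levels of all 10 members overlapped between Acta2-tdT and Pdgfra-tdT saline mice, where non-overlap was found for 7.75% of 8153 genes tested in the higher and 1.95% in the lower direction. The median log2 difference of the members, Acta2-tdT minus Pdgfra-tdT, was -1.23, with 2 positive and 8 negative, against a median of 0.19 over all genes tested. Without Pdgfra-tdT saline mouse 3 the members' median was 0.07, so the direction rested on that mouse. The largest remaining difference was that of Eng, at 1.73 without the mouse and 0.16 with it. On the values as deposited, the median was -0.80, and 0.18 without the mouse. The filter for testing asked for 1 FPKM or more in 4 or more of the 8 mice, and 4 members passed it (Cldn5, Egfl7, Ramp2 and Eng).

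Companion genes were tested with limma on log2(value + 1), with Benjamini-Hochberg adjustment over all genes tested and a threshold of 0.05. After saline, 2 of 25 tested companions were higher in Acta2-tdT than in Pdgfra-tdT mice and none lower, on both scales. Over all genes, 2.22% were higher and 0.123% lower on the scaled levels, and 2.72% and 0.184% as deposited. The pair was Tbx2, a T-box transcription factor from the list of lung capillary genes, and Pgf, a ligand of the VEGF family. The scaled level of Tbx2 was 104, 88.1, 64.6 and 68.8 in Acta2-tdT saline mice and 0.874, 1.98, 10.3 and 2.396 in Pdgfra-tdT saline mice. The log2 difference was 4.4 ± 0.68 (SE, limma adjusted p = 0.0162), and that of Pgf 3.53 ± 0.50 (limma adjusted p = 0.0116). Both genes were below 1 FPKM in all 4 Pdgfra-tdT saline mice, so they entered the test only through the group in which they were high. On the scaled levels 9 of the 25 companions had an unadjusted p below 0.05, as had 15.3% of all genes. Without Pdgfra-tdT saline mouse 3, 16 of 21 companions passed on the scaled levels, 14 of them higher and 2 lower in Acta2-tdT, where 23.1% of all genes were higher and 13.4% lower. In that setting a gene could meet the filter through the Acta2-tdT mice alone but not through the remaining Pdgfra-tdT mice alone, which favors calls higher in Acta2-tdT. Tbx2 and Pgf could not be tested without any 1 of the 4 Acta2-tdT saline mice, since they then missed the filter. With the mouse number as a block none passed, with 9 at an unadjusted p below 0.05, and the adjusted p was 0.132 for Tbx2 and 0.0938 for Pgf. The smooth muscle markers moved with this contrast, 7 of 7 tested being higher in Acta2-tdT mice, and their part in it was not tested.

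After bleomycin, all 10 members had a lower mean scaled level in Acta2-tdT than in Pdgfra-tdT mice, and Kdr, Tek and Cldn5 did so without overlap. Non-overlap was found for 14.7% of 11995 genes tested in this direction and 18.9% in the other. The log2 difference was -3.37 for Kdr, -4.05 for Tek and -4.14 for Cldn5, and -0.32 for Eng, the smallest. Over the 10 members the median was -3.30, against 0.51 over all genes tested, and -2.53 without Pdgfra-tdT bleomycin mouse 5. Eng turned to 0.54 without that mouse. As deposited, 0 of 10 did not overlap, where 5.96% of all genes lay lower without overlap and 56.8% higher, the median was -0.81 against 1.81 over all genes, and it was 0.17 without the mouse. Without that mouse, the members' median was thus negative on the scaled levels only. Of the members, 8 passed the filter, and Kdr and Tek did not.

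Among the companions tested after bleomycin, 21 of 69 passed on the scaled levels. There were 6 higher and 15 lower in Acta2-tdT mice, against 12.8% higher and 15.9% lower of all genes tested, and the companions' median was -0.79 against 0.51. Flt1, the second VEGF receptor and a direct partner of Kdr, was at 7.19, 3.44, 4.65 and 2.57 in Acta2-tdT bleomycin mice and at 104, 50.4, 46.6 and 25.9 in Pdgfra-tdT bleomycin mice. These groups did not overlap, and the log2 difference was -3.30 ± 0.53 (limma adjusted p = 0.00401). Calcrl, the receptor that Ramp2 partners, was at 3.96, 2.80, 1.70 and 2.39 against 254, 117, 50.2 and 19.8, a log2 difference of -4.38 ± 0.74 (limma adjusted p = 0.00444). Erg, the ETS factor of endothelium, was at 0, 0.973, 1.60 and 2.68 against 49.3, 33.7, 45.7 and 9.58, with a log2 difference of -3.87 ± 0.65 (limma adjusted p = 0.00436). On the scaled levels the bleomycin mice of the lines did not overlap for these 3 partners, and mouse 8 was the lowest Pdgfra-tdT mouse for each. As deposited, the lines overlapped for all 3. Erg only just met the filter and could be tested in 11 alternative settings, against 15 for Flt1 and for Calcrl.

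The list of other endothelial surface genes held 7 of the 15 companions that were lower, with none of its 14 tested members higher and a median of -2.60. Cd93, a lectin-like receptor of endothelium, differed by -4.58 ± 0.72 (limma adjusted p = 0.00353), and Gpihbp1, the capillary anchor of lipoprotein lipase in the lung capillary list, by -5.18 ± 1.03 (limma adjusted p = 0.00601). Gpihbp1 was at 19.5, 29.5, 13.1 and 5.46 in Acta2-tdT bleomycin mice and at 2093, 1243, 559 and 65.4 in Pdgfra-tdT bleomycin mice. The others that were lower were Adgrf5, Cyyr1, Emcn, Icam2, Mmrn2 and Ushbp1, the junction genes Jam2 and Tjp1, the VE-cadherin phosphatase Ptprb, and thrombomodulin, encoded by Thbd. Higher in Acta2-tdT mice were Pgf (4.46 ± 0.50, limma adjusted p = 0.000747), Tbx2 (4.45 ± 0.62, adjusted p = 0.00196), Adm, the adrenomedullin gene (3.66 ± 0.88, adjusted p = 0.0128), Cd63, Jam3 and Vcam1. Pgf and Tbx2 were below 1 FPKM in all 4 Pdgfra-tdT bleomycin mice and so entered this test, too, only through the group in which they were high. The direct partners Esam at -2.41 ± 1.15 (limma adjusted p = 0.139) and Acvrl1 at -0.91 ± 1.06 (adjusted p = 0.520) did not pass, though Esam did so without Pdgfra-tdT bleomycin mouse 8 (-3.50, adjusted p = 0.0169).

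As deposited, the count after bleomycin was 28 of 69, all of them higher in Acta2-tdT mice, where 71.0% of all genes were higher and 8.61% lower. Of the 15 companions that were lower on the scaled levels, none passed as deposited, 14 were still negative, and Jam2 was at 0.47. The share of companions that were higher was below that of all genes on this scale. The median over all genes moved from 0.51 on the scaled levels to 1.81 as deposited, while that of the other endothelial surface genes was negative on both (-2.60 and -0.38). As deposited, 11 of 35 calls were lower without Pdgfra-tdT bleomycin mouse 8, where 6.40% of all genes were lower and 71.3% higher, and 5 of 33 with the replicate block, where 7.31% were lower and 70.9% higher. Without Pdgfra-tdT bleomycin mouse 5, 48 of 64 companions passed as deposited, against 88.7% of all genes, and 21 on the scaled levels, 10 higher and 11 lower, where 45.9% of all genes passed (25.9% higher). The scaled count was 10, 14, 11 and 8 without Acta2-tdT bleomycin mouse 5, 6, 7 and 8, and 13, 18 and 32 without Pdgfra-tdT bleomycin mouse 6, 7 and 8. In these settings 7 to 27 calls were lower and 1 to 5 higher, and 17.9% to 25.8% of all genes passed. Smooth muscle markers were higher in Acta2-tdT bleomycin mice for 8 of 8 tested, fibroblast markers for 5 of 8 and leukocyte markers for 3 of 8, and their part in the result was not tested.

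**Figure D3:**
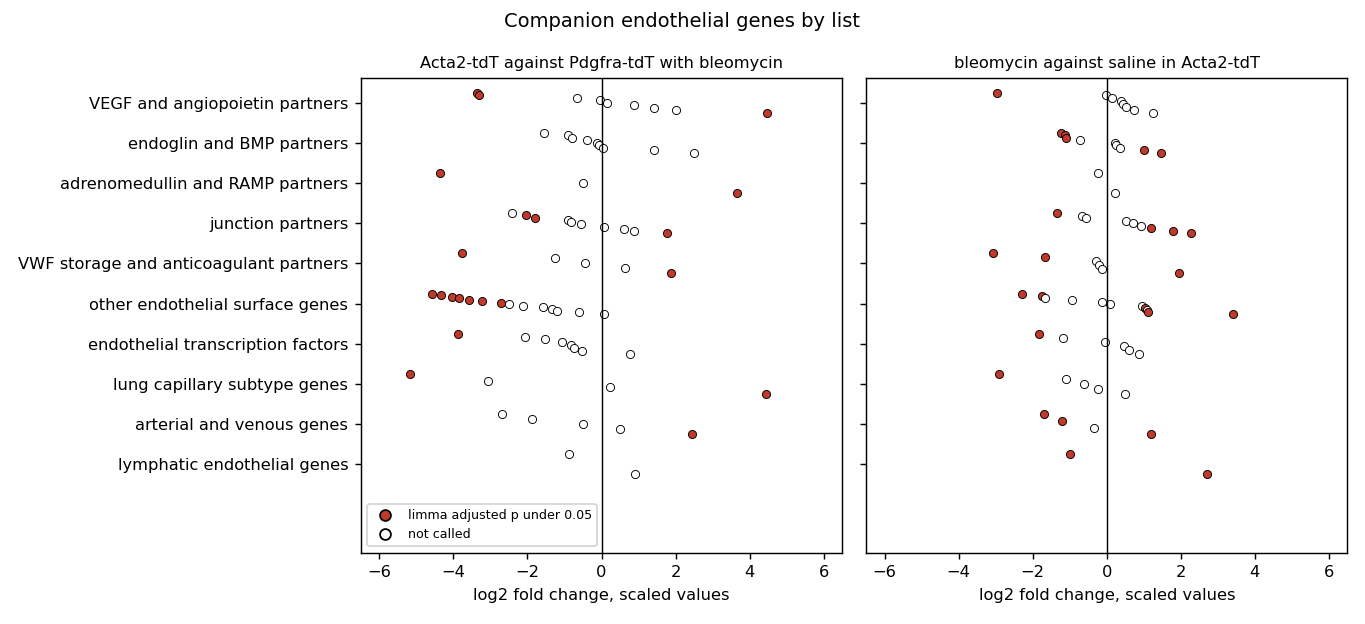
Log2 fold change of scaled levels of the tested companion genes, by list, for Acta2-tdT against Pdgfra-tdT after bleomycin (left) and bleomycin against saline in Acta2-tdT (right), with filled points for genes with a limma adjusted p under 0.05. On the left, filled points of the other endothelial surface genes lie at negative values only (7 of 14), and on the right calls fall on both sides (11 higher, 14 lower).

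In Acta2-tdT mice, bleomycin against saline asks how the levels of endothelial genes in the sorted RNA differed after injury. The 2 endothelial lists went in opposite directions on the scaled levels. The 10 members summed to 382 to 465 with saline and 216 to 286 with bleomycin. The 19 other endothelial surface genes summed to 393.7 to 422 with saline and 610.5 to 727.5 with bleomycin. A lower level of the members is thus not a measure of the endothelial share. The scaled level was lower with bleomycin for 9 members and higher for Eng. Groups did not overlap for Kdr (log2 difference -1.84), Tek (-1.74), Cldn5 (-1.59) and Egfl7 (-1.36), all lower, and for Eng (0.73), which was higher. Kdr and Tek were below 1 FPKM in every Acta2-tdT mouse. Non-overlap was found for 29.6% of 12523 genes tested in the lower and 21.5% in the higher direction. That background covers only genes that passed the filter, as did 6 of the 10 members. Cdh5, Kdr, Tie1 and Tek did not pass it, so the shares of the members, 4 and 1 of 10, are not strictly comparable with it. The members' median was -0.89 against -0.01 over all genes.

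As deposited, all 10 differences were positive, and 6 members did not overlap, namely Pecam1, Cldn5, Egfl7, Ramp2, Eng and Vwf. On this scale 67.8% of all genes lay higher without overlap and 12.5% lower. Eng was at 2.34, 1.66, 2.26 and 3.51 FPKM with saline and at 32.3, 16.4, 42.8 and 42.4 FPKM with bleomycin, a log2 difference of 3.26. The members' median was 1.22 against 1.76 over all genes. Only Eng was thus higher on both scales, and the direction of the other 9 depended on the scaling.

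**Figure D4:**
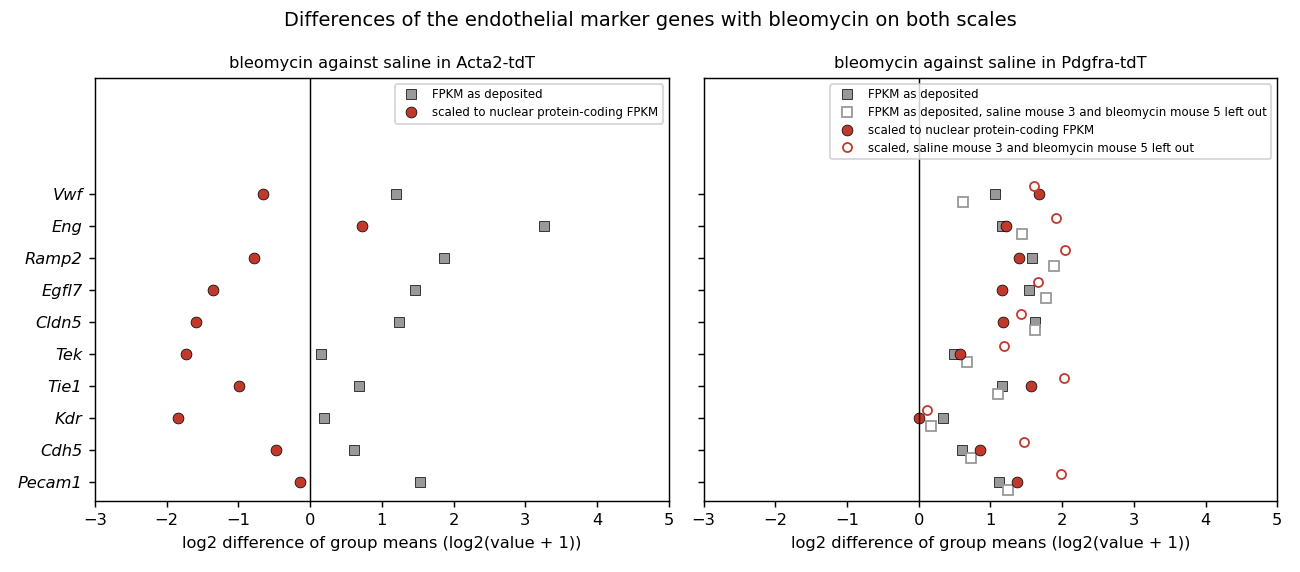
Log2 difference between bleomycin and saline of the 10 endothelial marker genes in Acta2-tdT (left) and Pdgfra-tdT mice (right), as deposited (squares) and scaled (circles), with open symbols for Pdgfra-tdT without saline mouse 3 and bleomycin mouse 5. In Acta2-tdT mice the squares are all positive and the circles negative except for Eng at 0.73, and in Pdgfra-tdT mice no point lies below 0.

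Of 62 companions tested in this contrast, 25 passed on the scaled levels, 11 higher and 14 lower with bleomycin, against 22.6% and 31.1% of all genes tested. The companions' median was 0.04 and that of all genes -0.01. Angpt1, the ligand of TIE2 that mural cells release, was at 23.2, 38.6, 33.5 and 27.9 with saline and at 3.58, 6.51, 1.28 and 2.24 with bleomycin. On these scaled levels it fell by 2.97 ± 0.40 on the log2 scale (limma adjusted p = 0.000329), in the same direction as its receptor gene Tek. Ednrb, the endothelin B receptor of lung capillaries, was at 77.7, 53.2, 64.6 and 44.4 against 2.06, 17.2, 10.4 and 5.33 and fell by 2.91 ± 0.53 (limma adjusted p = 0.00175). Rab27a, which acts in the release of storage granules, fell by 3.07 ± 0.50 (limma adjusted p = 0.000947). Other genes that fell on the scaled levels were Cd93, Icam2, Thbd and Jam2, the transcription factors Mecom and Nr2f2, the arterial connexin gene Gja4, Lyve1, and Id2, Smad5 and Tgfbr3 of the endoglin and BMP list. The direction of most of these genes depended on the scaling, since of the 14 that fell 8 were called higher as deposited, among them Id2 (1.78), Lyve1 (1.74), Nr2f2 (1.39), Gja4 (1.09) and Jam2 (0.95). As deposited the other 6 did not pass, and of these only Angpt1 (-0.21), Rab27a (-0.25) and Ednrb (-0.01) were negative.

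Ecscr, an endothelial surface gene, rose by 3.42 ± 0.52 (limma adjusted p = 0.000653), from 21.2, 39.98, 37.5 and 6.27 to 268, 226, 222 and 244. Pdpn, the podoplanin gene of lymphatic endothelium, which alveolar epithelium and fibroblasts also express, rose by 2.72 ± 0.46 (limma adjusted p = 0.00115). F11r, a junction adhesion gene of endothelium, epithelium and platelets, rose by 2.27 ± 0.53 (limma adjusted p = 0.00647), and its adjusted p was 0.106 when all 16 mice entered 1 fit. The others that rose were Cav1, Cd34, Cd63, Ctnnb1, Jup, Id3, Tgfbr2 and Vcam1, several of which stromal cells also express. All 11 that rose were also called higher as deposited, and Ctnnb1 was below 1 FPKM in all 4 saline mice. Direct partners of the members that did not pass were Acvrl1, the endoglin-associated receptor gene (0.22, limma adjusted p = 0.666), and Esam (-0.68, adjusted p = 0.363). Summed fibroblast markers ran from 563 to 766 with saline and from 4554 to 6882 with bleomycin in these mice, smooth muscle markers from 4729 to 6734 and from 5944 to 9047, and leukocyte markers from 20220 to 29370 and from 10660 to 20900. Their part in the result was not tested. As deposited, 55 of the 62 companions were higher and none lower, against 70.4% and 16.3% of all genes, and with all 16 mice in 1 fit 10 of 62 passed on the scaled levels, against 33.4% of all genes.

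In Pdgfra-tdT mice, all 10 members had a higher mean with bleomycin than with saline on both scales, and none did so without overlap. Non-overlap was found for 1.31% of 7275 genes tested in the higher and 0.962% in the lower direction on the scaled levels, and for 1.43% and 1.15% as deposited. The median log2 difference was 1.19 on the scaled levels, against -0.47 over all genes, and 1.64 without saline mouse 3 and bleomycin mouse 5. As deposited it was 1.14, against 0.02, and 1.17 without both. Without saline mouse 3 alone the median was 2.43 scaled and 2.23 as deposited, and without bleomycin mouse 5 alone 0.35 scaled and 0.09 as deposited. Over the members the scaled difference ran from 0.01 for Kdr to 1.68 for Vwf, and that as deposited from 0.34 for Kdr to 1.62 for Cldn5. Kdr and Vwf did not pass the filter, and the other 8 did.

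No companion passed in Pdgfra-tdT mice on either scale with limma, of 40 tested, where 0.0275% of all genes were higher and 0.0962% lower on both scales. At an unadjusted p below 0.05 there was 1 on the scaled levels and 2 as deposited. The median of the companions was 1.09, against -0.47 over all genes. Flt1 differed by 0.98 ± 0.80, Erg by 1.5 ± 1.06, Calcrl by 0.58 ± 1.23, Esam by 1.57 ± 1.58 and Acvrl1 by 0.40 ± 1.55. Their adjusted p-values from limma ran from 0.758 to 0.914. Without saline mouse 3 and bleomycin mouse 5, 11 companions could be tested and none passed, and 4 had an unadjusted p below 0.05 on the scaled levels and 2 as deposited. With sample quality weights 25 of 40 passed on the scaled levels, against 33.3% of all genes, among them Erg (limma adjusted p = 0.0176), Flt1 (adjusted p = 0.0233) and Esam (adjusted p = 0.0266). Leukocyte markers summed to 3804, 1976, 800 and 2381 with saline and to 24070, 36530, 31540 and 13070 with bleomycin, without overlap, and their part in the result was not tested.

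Whether bleomycin changed the companions differently between the lines was tested as the interaction, the Acta2-tdT difference minus the Pdgfra-tdT difference, over all 16 mice. Here too, strain cannot be told apart from the route and timing of tamoxifen. On the scaled levels none of 79 companions passed with limma, 9 had an unadjusted p below 0.05, and 1.05% of all genes were higher and 7.85% lower. As deposited 13 passed, all higher, where 36.6% of all genes were higher and 3.20% lower. The companions' median was -0.95 scaled, against -0.68 over all genes. The interaction was -2.47 ± 0.82 for Flt1 (limma adjusted p = 0.0722), -2.88 ± 0.98 for Angpt1 (adjusted p = 0.0809) and -2.50 ± 1.09 for Erg (adjusted p = 0.170). Without saline mouse 3 and bleomycin mouse 5 of Pdgfra-tdT, 13 of 68 companions passed on the scaled levels, 12 lower and 1 higher, against 22.2% lower and 3.12% higher of all genes. Among these 13 were Flt1 (limma adjusted p = 0.00254), Calcrl (adjusted p = 0.00410) and Angpt1 (adjusted p = 0.00506). As deposited 36 of the 68 passed, against 56.3% of all genes. Without saline mouse 3 alone 8 passed, all lower, against 6.28% of all genes lower, and without bleomycin mouse 5 alone 5 of 76 passed (35 as deposited), against 23.0% and 56.8% of all genes, so the count depended on these libraries.

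Angpt2 and Selp, partners of Tek and Vwf, were too low to test in the 4 comparisons of groups. Angpt2, the endothelial ligand that counters angiopoietin-1, ran from 0.902 to 26.3 in scaled level over the 16 mice, and was at 18.1 in Pdgfra-tdT saline mouse 3, close to the 16.9 of saline mouse 1. Its interaction of line and treatment was -1.70 ± 0.84 (limma adjusted p = 0.227), and the adjusted p was 0.0187 without Pdgfra-tdT bleomycin mouse 5. Selp, the P-selectin gene stored beside von Willebrand factor, ran from 0 to 4.65, and was at 0.227 in saline mouse 3 and listed at 0 in bleomycin mouse 5. The mice with the highest level of the 10 members therefore did not have the highest level of Selp.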

How the data were processed

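RNA of sorted tdTomato-positive lung cells from 16 mice was sequenced after SmartSeq2 amplification, which keeps no strand. The authors aligned reads to GRCm38 (TopHat2 2.1.1, Bowtie2 2.2.9) and estimated FPKM for each mouse with Cufflinks 2.1.1, and these deposited FPKM were used as they stand. Rows of 1 Ensembl gene were summed, and 15 genes that Cufflinks did not mark as OK in every mouse were left out. The members and lists were chosen with earlier results of these data known.

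Tables were handled in Python 3.11.15 (NumPy 2.4.6, pandas 2.3.3) and plots drawn with matplotlib 3.10.9. Scaled levels divide FPKM by the sum over 21961 nuclear protein-coding genes. Tests used limma 3.58.1 in R 4.3.3 (lmFit, eBayes with trend) on log2(value + 1), which understates changes of low genes, for genes that reached 1 FPKM in 4 or more mice of a comparison, with Benjamini-Hochberg adjustment. The procedure was tested on simulated data. Replicates were separate mice. Named companions were the 3 called genes per direction with the largest change and no overlap between groups, in each comparison of groups, and direct partners of the members. Of Angpt2 and Selp, values are given, since they were mostly too low to test. Remaining calls were named after their values were seen.

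Mice of the same number in different groups were different animals, and the numbers were not used to pair them. Alternatives were pseudocounts of 0.1 and 10, no filter, all 16 mice in 1 fit, sample quality weights, the mouse number as a block and leaving out mice. Gene positions follow the GENCODE annotation of GRCm38. The spans given with the deposited FPKM differ from these for Cldn5 (end 18778260), Egfl7 (26581056 to 26592684) and Ramp2 (end 101248250). Promoter sequences come from RefSeq. Foxf1, the 1 listed gene that was not matched, was not analysed here.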

Additional observations from a re-analysis of the deposited data

Results flagged for a closer look

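For 2 members, 1 mouse lay far from the other 3 of its group on log2(scaled level + 1). Ramp2, at a scaled level of 58.3 in Acta2-tdT bleomycin mouse 6, had a gap to the next mouse of 0.841 of the group's log2 range. Eng, at 1276 in Pdgfra-tdT saline mouse 3, had a gap of 0.846. On scaled levels without the log, the gap between that mouse and the next of its group ran from 0.819 to 0.990 of the range over the 10 members. For Pdgfra-tdT bleomycin mouse 5 this gap ran from 0.642 to 0.938. The members were chosen for high levels in a few Pdgfra-tdT mice, so these gaps are a description and test nothing.

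The difference between the lines in the effect of bleomycin was past the threshold for 13 of 79 companion genes on the values as deposited, by the limma interaction, where 39.8% of all genes passed, and for 0 on the scaled levels, where 9 had an unadjusted p below 0.05.

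The miR-126 genes lie inside Egfl7 and enter no comparison. Mir126a was listed at 131.774 FPKM in Acta2-tdT bleomycin mouse 6 (Cufflinks bounds 0 to 507.021) and Mir126b at 1143.82 FPKM in Pdgfra-tdT bleomycin mouse 5 (bounds 0 to 4410.33). Each was listed at 0 in the other 15 mice. Their hairpins are 73 and 58 bases long, and for genes this short FPKM is imprecise.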

How the results depend on the processing

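Medians of the members kept their sign under the alternatives tried, except for the lines with saline (both scales, without Pdgfra-tdT saline mouse 3) and with bleomycin (as deposited, without Pdgfra-tdT bleomycin mouse 5). With 1 mouse left out, the scaled medians ran from -1.79 to 0.07 (lines with saline), -4.10 to -2.53 (lines with bleomycin), -1.07 to -0.68 (Acta2-tdT treatment) and 0.35 to 2.43 (Pdgfra-tdT treatment), and as deposited from -1.31 to 0.18, -1.57 to 0.17, 1.11 to 1.34 and 0.09 to 2.23. With a pseudocount of 10, the Acta2-tdT treatment median as deposited was 0.31 instead of 1.22. Counts of companions passing, in the same order and then for the interaction, were 2, 21, 25, 0 and 0 scaled and 2, 28, 55, 0 and 13 as deposited. With sample quality weights they became 17, 32, 25 (Pdgfra-tdT treatment) and 30 (interaction) scaled, and 14, 52, 2 and 39 as deposited, while the share of all genes passing became 42.3%, 44.2%, 33.3% and 26.3%, and 33.3%, 91.9%, 7.53% and 64.2%. With 1 mouse left out they ran from 0 to 16, 8 to 32, 19 to 24, 0 to 0 and 0 to 8 scaled, and from 0 to 15, 20 to 48, 38 to 55, 0 to 0 and 9 to 35 as deposited. The values of 0 for the lines with saline came where Tbx2 and Pgf missed the filter without an Acta2-tdT saline mouse, and the 48 and 35 are those without Pdgfra-tdT bleomycin mouse 5. For the lines with saline as deposited, the count was 1 with a pseudocount of 10 and 1 with no filter. For the interaction it was 6 with a pseudocount of 0.1 and 20 with 10 as deposited, and 1 with 10 scaled. The scaled Acta2-tdT treatment count was 45 with no filter and 10 with all 16 mice in 1 fit, which gave 1 for the Pdgfra-tdT treatment. Leaving out both Pdgfra-tdT mice that stood apart, chosen after seeing the data, gave 36 (as deposited) and 13 (scaled) for the interaction. The causes of these shifts were not tested.

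With the replicate block the counts for the lines with saline were 0 on both scales (9 and 8 companions with an unadjusted p below 0.05), and with bleomycin 18 scaled and 33 as deposited, of 69, against 22.2% and 78.2% of all genes. Same-numbered mice were different animals, and correlations of deviations between same-numbered mice ran from -0.31 to 0.16. For named companions, 460 of 496 alternative values kept direction and side of the threshold, 3 fell short of it, 20 newly passed and 13 changed direction. The 13 were of Acvrl1 and Esam, which passed on neither side. With sample quality weights the lines with saline gave 0.47 (Acvrl1) and 1.18 (Esam). With 1 mouse left out, Esam ran from -0.72 to 1.17 (lines with saline), and Acvrl1 from -0.14 to 0.45 (Acta2-tdT treatment), -0.10 to 1.47 (Pdgfra-tdT treatment) and -1.48 to 0.68 (interaction).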
